A study of Mus musculus with 63 samples.

Results

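Small intestinal organoids in which Cdk8 can be deleted, and which lack Cdk19 throughout, were compared 5 days after a pulse of 4-OHT with organoids of the same line given EtOH. The comparison takes the 6 libraries collected at day 5 out of the 63 samples of the series, 3 with 4-OHT and 3 with EtOH, as the labels name them. Both groups carried VillinCreERT2, 2 floxed Cdk8 alleles (Cdk8 fl/fl) and a Cdk19 knockout (Cdk19 ko/ko) on a C57BL/6 background, so by genotype EtOH organoids kept CDK8 and lacked CDK19. The 4-OHT group received 100 nM 4-hydroxytamoxifen for 24 h, the EtOH group 0.001% ethanol for 24 h, and the medium was then replaced. VillinCreERT2 is a Cre recombinase held inactive until 4-hydroxytamoxifen binds it and driven by the Villin promoter, which is active in intestinal epithelium. The study also sequenced the same line at days 3, 7 and 10, each day with its own EtOH group, and these 24 libraries were fitted together so that the day 5 response could be set against the others.

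CDK8 and CDK19 are alternative kinases of the Mediator kinase module, which also holds cyclin C, MED12 and MED13 and docks onto Mediator, the complex that links transcription factors bound at enhancers to RNA polymerase II. The small intestinal epithelium renews from Lgr5-positive stem cells in the crypt. Their progeny become absorptive enterocytes or, when Notch signalling is low and the transcription factor ATOH1 is made, secretory cells, namely Paneth, goblet, enteroendocrine and tuft cells. Paneth cells make antimicrobial proteins and, in organoids that hold no mesenchyme, are the source of WNT3.

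The 6 libraries held 18908677 to 20884794 counts each, and libraries correlated more closely within a group (Pearson's r across genes 0.989 to 0.993) than between groups (0.975 to 0.980). Cdk8 itself could not serve as a check of the deletion, because the deposited values count reads over whole genes and not over the floxed exons. Its levels were 38.5, 46.1 and 46.5 CPM (counts scaled to a common library size with TMM factors) in EtOH and 44.6, 44.1 and 46.3 CPM in 4-OHT organoids. Cdk19, likewise counted over the whole gene, was at 38.8, 39.8 and 35.6 CPM and 48.8, 48.5 and 46.04 CPM, a log2 fold change of 0.33 (SE 0.07, adjusted p = 2.60e-04), under the fold cutoff described below. Epithelial markers summed to 8555 to 9172 CPM in EtOH and 8271 to 9101 CPM in 4-OHT organoids, and 0 of 8 passed both cutoffs, though the regional transcription factor Cdx2 (-0.29, adjusted p = 7.17e-04) passed the adjusted p alone. Of 12 immune markers 4 were tested and 0 were called, summing to 14.6 to 18.2 CPM against 14.9 to 18.5 CPM, while Igkc had 0 counts in all 6 libraries and Ptprc and Cd3e at most 3 and 1. Of 12 mesenchymal markers 4 were tested and 0 called (8.78 to 9.53 CPM against 6.55 to 10.1 CPM for these 4), with Col3a1, Dcn and Lum at 0. Of 6 endothelial markers 3 were tested and 0 called (2.58 to 4.49 CPM against 2.22 to 2.89 CPM), with Cdh5 and Emcn at 0. Up to 1 endothelial marker was called higher with 1 library left out, and up to 1 mesenchymal marker lower under other processing settings. Of 7 neural and glial markers 2 were tested and 0 called (0.709 to 2.38 CPM against 0.686 to 2.03 CPM), with Uchl1 and Sox10 at 0. The labels name the organoid line by a number that all 6 columns share and do not say that replicates were separate cultures, so p-values measure the spread between these libraries. No line with Cre but without floxed Cdk8 was collected at day 5, so the effects of 4-hydroxytamoxifen, of active Cre and of losing Cdk8 cannot be told apart here.

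At day 5, 2040 of 15447 tested genes differed (13.2%), of which 1326 were higher (8.58%) and 714 lower (4.62%) in 4-OHT organoids. A gene was called where edgeR's quasi-likelihood test gave a Benjamini-Hochberg adjusted p under 0.05 and the fold was over 1.5, and every adjusted p below is of this kind. The median log2 fold change of all tested genes was 0.0012. The libraries of the groups did not overlap for 7065 genes (45.7%), 3518 higher and 3547 lower.

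**Figure D1:**
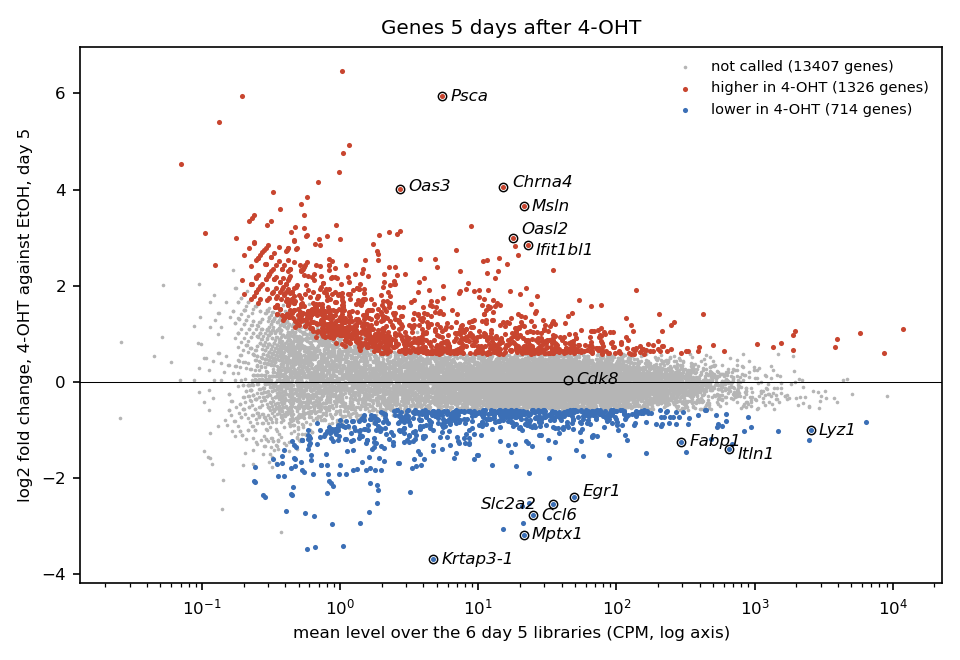
Each point is a tested gene, with its mean level over the 6 day 5 libraries in CPM on a log axis and its log2 fold change in 4-OHT against EtOH organoids. Red points are the 1326 genes called higher and blue points the 714 called lower; Psca lies highest of the labelled genes, Krtap3-1 lowest, and Cdk8 near 0.

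The 12 largest rises among genes with at least 50 mean counts in the higher group were led by Psca. This gene (ENSMUSG00000022598.6, chr15:74714839-74717069, plus strand in GRCm38), which encodes prostate stem cell antigen, a GPI-anchored surface protein, stood at 0.108, 0.202 and 0.196 CPM in EtOH and 8.33, 10.3 and 13.8 CPM in 4-OHT organoids, that is, 10 counts over 3 libraries against 615. Its log2 fold change was 5.94 (SE 0.45, adjusted p = 4.86e-10). Chrna4, a subunit of the nicotinic acetylcholine receptor, rose from 2.65, 0.962 and 1.62 CPM to 29.00, 31.1 and 25.9 CPM, a log2 fold change of 4.05 (SE 0.23, adjusted p = 1.39e-12). In both genes each 4-OHT library lay above every EtOH library. Among the 12 largest rises were also Ppef1 (3.14), a calcium-binding protein phosphatase, Acacb (3.08), the acetyl-CoA carboxylase of the mitochondrial surface, and Apol9a (2.88). The others were Oas3, Oasl2, Ifit1bl1, Msln and Anxa10, described below, mt-Nd4l, a mitochondrial gene, and Gm10222, a nuclear pseudogene copy of mitochondrial sequence whose reads may come from either genome.

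The largest falls by the same rule included Mptx1, Ccl6 and Slc2a2, described below. Krtap3-1, a keratin-associated protein, fell from 6.88, 12.5 and 6.72 CPM to 0.427, 0.945 and 0.634 CPM, a log2 fold change of -3.69 (SE 0.43, adjusted p = 1.43e-06). Fbp1, a gluconeogenic enzyme, fell from 36.01, 48.9 and 26.6 CPM to 6.46, 4.62 and 3.38 CPM (log2 fold change -2.95), and Enpp7, the alkaline sphingomyelinase of the brush border, from 20.9, 54.3 and 31.01 CPM to 4.81, 5.31 and 7.66 CPM (-2.58). EtOH replicate 2 was the highest library for all 3 genes, and each EtOH library lay above every 4-OHT library. Adh4 (-2.52), an alcohol dehydrogenase, Alb (-2.52), which encodes albumin, Fetub (-2.72), Nrep (-2.28) and the pseudogene Gm6831 (-3.06) also fell. The immediate early gene Egr1 fell from 93.9, 67.9 and 85.6 CPM to 16.7, 16.1 and 14.2 CPM, a log2 fold change of -2.40 (SE 0.13, adjusted p = 6.31e-12).

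Many genes of secretory cells and of their regulators fell. Of 14 transcription factors of the secretory lineage, 6 fell and 0 rose, with a median log2 fold change of -0.58 beside 0.0012 over all genes. Atoh1 (ENSMUSG00000073043.5, chr6:64729125-64731245, plus strand), which commits progenitors to secretory fates, was at 34.9, 32.1 and 35.4 CPM in EtOH and 20.5, 20.1 and 19.1 CPM in 4-OHT organoids. The groups did not overlap and the replicates lay close together, giving a log2 fold change of -0.78 (SE 0.07, adjusted p = 3.97e-09). Bhlha15, which builds the secretory apparatus, fell from 31.8, 29.5 and 32.3 CPM to 13.4, 13.6 and 12.8 CPM, a log2 fold change of -1.24 (SE 0.09, adjusted p = 2.50e-11). Pou2f3, the master regulator of tuft cells, fell from 5.25, 4.81 and 5.49 CPM to 1.602, 0.945 and 1.901 CPM, a log2 fold change of -1.80 (SE 0.24, adjusted p = 1.39e-06). Creb3l1 (-0.73), Neurog3 (-0.67), which specifies enteroendocrine cells, and Foxa3 (-0.60) made up the 6. Spdef (-0.40) and Gfi1 (-0.57), which act in goblet and Paneth cells, stayed under the fold cutoff.

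Of 26 Paneth cell genes, 22 were tested, 18 fell and 0 rose, with a median of -0.94. Lyz1 (ENSMUSG00000069515.6, chr10:117287797-117292868, minus strand), the Paneth cell lysozyme, was at 3752, 3720.0 and 2711 CPM in EtOH and 1845, 1619.6 and 1606 CPM in 4-OHT organoids, a log2 fold change of -1.01 (SE 0.11, adjusted p = 2.01e-07). Itln1, an intelectin that binds microbial sugars, fell from 886, 1019 and 931 CPM to 368, 358 and 350.4 CPM, a log2 fold change of -1.40 (SE 0.07, adjusted p = 4.10e-15). The largest fall was of Mptx1, a mucosal pentraxin, from 50.3, 43.7 and 20.9 CPM to 6.46, 3.57 and 2.59 CPM, a log2 fold change of -3.18 (SE 0.30, adjusted p = 3.64e-07). In all 3 genes the groups were apart, with EtOH replicate 3 the lowest of its group for Lyz1 and Mptx1. Ang4, an antimicrobial ribonuclease (262, 304 and 259.9 CPM against 154, 154 and 128 CPM, log2 fold change -0.92), and Mmp7, the protease that activates alpha-defensins (141, 147 and 148 CPM against 84.3, 85.5 and 86.4 CPM, -0.77), fell by less. Wnt3, the Paneth cell ligand that feeds stem cells, fell from 11.05, 12.7 and 13.8 CPM to 6.46, 5.46 and 5.91 CPM, a log2 fold change of -1.08 (SE 0.13, adjusted p = 1.97e-07). The alpha-defensins of the list are near-identical copies whose reads the counting could split, so Defa26 (-1.34) and Defa17 (-1.21) are uncertain as single genes. The members not called were Mptx2 (-0.17), Pnliprp2 (-0.06), Nupr1 (0.13) and Gm14851 (-0.50). In these bulk samples fewer cells of a type and less RNA per cell cannot be told apart.

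Tuft cell genes, which serve chemosensing, had the lowest median of the lists tested, from low levels. Of 20 genes 12 reached the filter on low counts, 9 of these fell and 0 rose, with a median of -1.77. The summed level of the 12 tested genes was 27.1 to 27.6 CPM in EtOH and 12.04 to 12.98 CPM in 4-OHT organoids. Trpm5, the taste-type cation channel, was at 6.12, 6.33 and 5.94 CPM against 2.72, 1.79 and 1.48 CPM, a log2 fold change of -1.62 (SE 0.21, adjusted p = 8.14e-07). Plcb2 (44 counts in all against 8), Lrmp (79 against 18) and Ptgs1 (75 against 19) fell too. Gnat3, the taste-type G protein, had 28 counts against 5, and its adjusted p of 0.0167 became 0.164 without EtOH replicate 3 and 0.0637 without 4-OHT replicate 2. Dclk1, the usual tuft cell marker, had at most 2 counts in any of the 6 libraries and was not tested.

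Some goblet and enteroendocrine cell genes fell. Lower calls made up 4.62% and higher calls 8.58% of all tested genes. Of 18 goblet cell genes 5 fell and 0 rose, with a median of -0.33. Their summed level was 4590 to 5219 CPM in EtOH and 2864 to 3186 CPM in 4-OHT organoids. That of the tested Paneth cell genes was 6387 to 7556 CPM and 3555 to 4053 CPM. Fcgbp, a mucus protein, fell from 1716, 2247 and 1940.1 CPM to 980.4, 1048 and 874 CPM (log2 fold change -1.02), and Spink4 from 657, 664 and 793 CPM to 402, 398 and 346 CPM (-0.88). The chemokine Ccl6 (-2.77), Rep15 (-0.84) and Creb3l1 were the others. Muc2, the main intestinal mucin, was at 204, 281 and 183 CPM against 211, 200.2 and 197 CPM, overlapping ranges with a log2 fold change of -0.13 (SE 0.21, adjusted p = 0.65). Of 24 enteroendocrine genes 9 were tested and 2 fell, Insm1 (-1.01) and Reg4 (-0.69). The number called lower was 2 with any 1 library left out and as low as 1 under other processing settings. The 9 tested genes summed to 89.7 to 107 CPM in EtOH and 58.8 to 70.5 CPM in 4-OHT organoids. Whether these lists differ from the Paneth or tuft cell lists was not tested.

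Among all tested genes 4.62% were called lower and 8.58% higher. Of 14 tested genes of the Notch pathway, whose activity opposes secretory fate, 3 fell and 0 rose. They were the ligand Dll4, from 9.21, 7.29 and 12.3 CPM to 3.899, 5.15 and 3.91 CPM (log2 fold change -1.15), the Notch glycosyltransferase Lfng, from 34.9, 28.8 and 33.02 CPM to 17.5, 15.97 and 16.9 CPM (-0.94), and Hes5 (-1.23). Hes5 rested on 37 counts against 15, and its adjusted p of 0.0305 became 0.0540 with DESeq2, 0.0890 with no filter on low counts, 0.0715 without EtOH replicate 1, 0.124 without EtOH replicate 3 and 0.124 without 4-OHT replicate 3. Hes1, the target that represses Atoh1, was at 96.8, 89.6 and 99.6 CPM against 117, 111 and 108 CPM. Its 4-OHT libraries lay above the EtOH libraries by less than the fold cutoff, with a log2 fold change of 0.23 (SE 0.06, adjusted p = 0.00382).

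**Figure D2:**
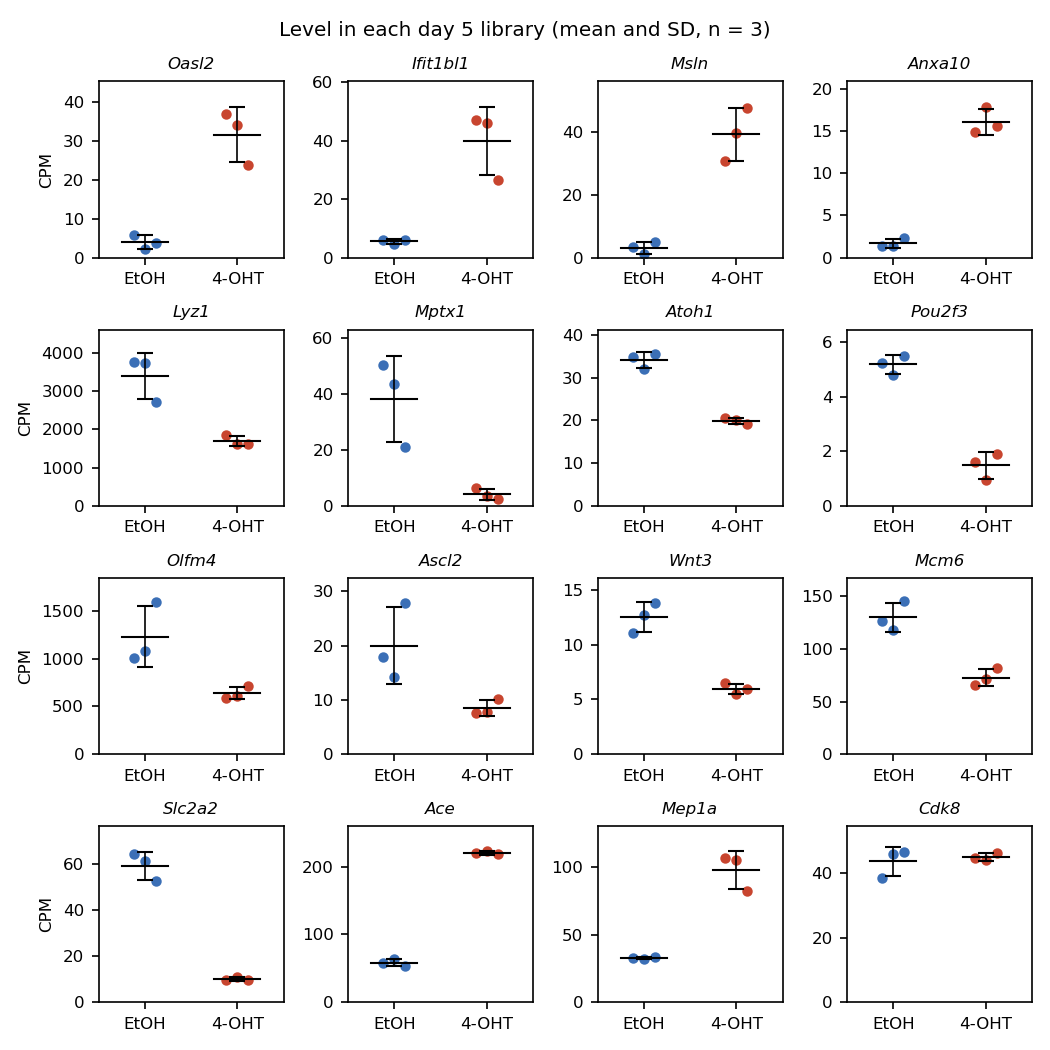
Each panel shows the level of a gene in CPM in the 3 EtOH (blue) and 3 4-OHT (red) libraries of day 5, with the mean as a bar and the SD as whiskers. The groups are apart in every panel except that of Cdk8, whose 4-OHT libraries lie within the EtOH range.

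Stem cell and Wnt target genes fell in part. Of 18 stem cell genes 4 fell (Olfm4, Ascl2, Lgr5 and Axin2) and 1 rose, with a median of -0.44. The background over all tested genes was 4.62% called lower and 8.58% called higher. Olfm4, a marker of stem cells and early progenitors, was at 1007, 1085 and 1597 CPM in EtOH and 589.6, 614 and 713 CPM in 4-OHT organoids, a log2 fold change of -0.94 (SE 0.16, adjusted p = 1.87e-04). Ascl2, a Wnt-controlled transcription factor of stem cells, fell from 17.98, 14.2 and 27.96 CPM to 7.64, 7.72 and 10.1 CPM, a log2 fold change of -1.24 (SE 0.28, adjusted p = 0.00221). For both, EtOH replicate 3 was the highest library. Lgr5, the R-spondin receptor that marks these cells, fell from 167, 131 and 179 CPM to 99.02, 106 and 96.4 CPM, a log2 fold change of -0.66 (SE 0.13, adjusted p = 5.83e-04), which came to -0.58 without EtOH replicate 3, just under the fold cutoff. The gene that rose was Gkn3 (8.83, 5.87 and 9.66 CPM against 14.5, 15.8 and 14.8 CPM, 0.89). Msi1 (-0.55, adjusted p = 0.00236) and Myb (-0.57, adjusted p = 4.93e-05) passed the adjusted p but not the fold cutoff. Both passed it without EtOH replicate 2 (Msi1 at -0.64, Myb at -0.59) and without 4-OHT replicate 3 (-0.72 and -0.65), and Myb also without EtOH replicate 1 (-0.62) or 4-OHT replicate 2 (-0.61). The count of stem cell genes called lower was 5, 7 and 3 without EtOH replicate 1, 2 and 3 and 3, 6 and 7 without 4-OHT replicate 1, 2 and 3.

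Of 20 Wnt targets and feedback genes 17 were tested, 7 fell and 0 rose, with a median of -0.58. Of these 7, Ascl2, Lgr5 and Axin2 are also on the stem cell list and were counted there. Axin2, the negative feedback scaffold, fell from 164, 155 and 188 CPM to 99.9, 105 and 125 CPM, a log2 fold change of -0.62 (SE 0.11, adjusted p = 1.96e-04). Tcf7, a nuclear effector of the pathway, fell from 12.5, 12.6 and 16.8 CPM to 6.14, 6.09 and 9.93 CPM (-0.92). Notum (-1.95), with 37 counts against 9, and Nkd1 (-0.93), both inhibitors of the pathway, rested on few reads. The adjusted p of Notum was 0.0572 without 4-OHT replicate 1, and that of Nkd1 was 0.133 without EtOH replicate 3, 0.115 without 4-OHT replicate 2 and 0.0757 when the 6 libraries were fitted alone. The seventh was Myc (-0.73).

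Most genes of DNA replication fell. All 25 on the list were tested and had negative log2 fold changes, 19 were called lower, and the median was -0.70. Mcm6, a subunit of the replicative helicase, was at 126, 118 and 145 CPM in EtOH and 65.4, 71.5 and 81.4 CPM in 4-OHT organoids, a log2 fold change of -0.84 (SE 0.10, adjusted p = 6.45e-07). Rrm2, which makes deoxynucleotides, fell from 73.8, 65.7 and 85.2 CPM to 30.98, 33.8 and 49.4 CPM (log2 fold change -0.98), and the transcription factor E2f1, which drives entry into S phase, from 27.1, 25.6 and 31.9 CPM to 15.4, 13.9 and 16.7 CPM (-0.88). Chaf1b (-0.92), a histone chaperone at forks, and Gins1 (-0.91) were among the largest falls. Of 22 mitosis genes all had negative values, with a median of -0.52, and 6 were called lower. Mki67 fell from 229, 272 and 287 CPM to 141, 153 and 177 CPM (-0.74). Most of the other values lay near the fold cutoff, and the count of mitosis genes called lower was 1 without EtOH replicate 3 and 2 without 4-OHT replicate 1, but 11 without EtOH replicate 1, 11 without EtOH replicate 2 and 13 without 4-OHT replicate 3. For replication genes these counts ran from 14 to 22.

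The promoters of the replication genes are shown because E2F factors control many of them. RefSeq start sites (GRCm38.p6, 250 bases before to 50 bases after the start) were found for 14 of the 19 genes that fell. The E2F-type motifs TTTNGCGC or TTTCCCGC, searched on both strands, were in 7 of these 14 promoters, against 4.89% of the 10352 tested genes with a promoter. The promoters of Mcm5 (chr8:75109259-75109558, plus strand) and Mcm6 (chr1:128359656-128359955, minus strand) are printed with matches in capitals, where adjoining capitals are overlapping matches.
Mcm5: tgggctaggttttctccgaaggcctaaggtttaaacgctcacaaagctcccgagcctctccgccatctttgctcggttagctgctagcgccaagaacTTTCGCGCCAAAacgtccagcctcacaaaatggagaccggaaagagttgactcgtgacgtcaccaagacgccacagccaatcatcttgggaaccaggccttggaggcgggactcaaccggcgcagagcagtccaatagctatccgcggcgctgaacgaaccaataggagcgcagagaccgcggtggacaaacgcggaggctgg
Mcm6: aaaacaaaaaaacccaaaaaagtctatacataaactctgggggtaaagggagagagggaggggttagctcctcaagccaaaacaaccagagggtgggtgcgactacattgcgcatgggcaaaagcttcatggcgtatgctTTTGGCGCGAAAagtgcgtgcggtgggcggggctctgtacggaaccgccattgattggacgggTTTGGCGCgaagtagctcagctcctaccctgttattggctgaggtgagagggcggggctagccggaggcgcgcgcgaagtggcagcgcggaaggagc
Mcm5 had 2 overlapping matches, starting 153 and 149 bases before the start site, and Mcm6 had 3, the farthest starting 110 bases and the nearest 47 bases before it. A match describes the letters only, and binding was not measured in these libraries.

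Genes of serine and one-carbon synthesis and of the amino acid response driven by ATF4 also fell, 9 of 18 with 0 higher and a median of -0.55. Asns, asparagine synthetase, was at 117, 102 and 177 CPM against 61.9, 66.2 and 83.2 CPM, a log2 fold change of -0.91 (SE 0.17, adjusted p = 5.45e-04). Phgdh, the enzyme that commits to serine synthesis, fell from 18.5, 17.1 and 34.4 CPM to 6.94, 8.19 and 13.04 CPM (log2 fold change -1.32), and Chac1, which degrades glutathione, from 17.4, 17.5 and 23.1 CPM to 3.63, 6.303 and 7.44 CPM (-1.74). In each of these genes EtOH replicate 3 was the highest library and every 4-OHT library lay under the EtOH range. The amino acid transporter Slc7a5 (-1.23) and Aldh1l2 (-1.81), a mitochondrial folate enzyme, fell as well. The letters TGATGNAA, the core of the element bound by ATF4, were found on either strand in 3 of the 7 promoters available for the genes that fell, those of Asns, Chac1 and Trib3, and in 2.67% of tested genes with a promoter. The promoter of Asns (chr6:7693160-7693459, minus strand) is printed with its match, which starts 23 bases before the start site, in capitals.
Asns: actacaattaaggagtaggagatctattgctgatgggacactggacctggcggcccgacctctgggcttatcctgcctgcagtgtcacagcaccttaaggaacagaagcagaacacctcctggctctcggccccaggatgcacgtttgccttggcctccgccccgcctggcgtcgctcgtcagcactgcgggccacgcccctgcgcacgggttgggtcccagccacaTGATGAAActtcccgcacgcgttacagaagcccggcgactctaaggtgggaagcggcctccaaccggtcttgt

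Most interferon-stimulated genes rose. Of 25 listed genes 23 were tested, 18 rose and 0 fell, with a median of 1.27, against 8.58% of all tested genes called higher. Oasl2 (ENSMUSG00000029561.17, chr5:114896936-114912234, plus strand), an antiviral protein of the oligoadenylate synthetase family, was at 5.902, 2.28 and 3.78 CPM in EtOH and 36.9, 33.99 and 23.7 CPM in 4-OHT organoids, a log2 fold change of 2.99 (SE 0.26, adjusted p = 6.02e-08). Ifit1bl1, of the family that binds viral RNA, rose from 5.96, 4.56 and 6.08 CPM to 47.2, 45.9 and 26.5 CPM, a log2 fold change of 2.85 (SE 0.25, adjusted p = 7.52e-08). Irf7, the transcription factor that amplifies the response, rose from 21.9, 18.8 and 19.97 CPM to 54.7, 48.1 and 43.8 CPM, a log2 fold change of 1.27 (SE 0.12, adjusted p = 3.63e-09). All 4-OHT libraries were above all EtOH libraries for these genes, with 4-OHT replicate 3 the lowest of its group. Oas3 (4.02), which is not on the list, and Oas2 (4.37) had larger fitted changes from few EtOH reads, 18 and 5 in all against 288 and 107. Ifi44 (2.45) had 5 against 28, and its adjusted p of 0.0187 became 0.0618 without EtOH replicate 1, 0.0641 without EtOH replicate 2 and 0.104 without 4-OHT replicate 1. Members not called included Mx2 (0.36), Zbp1 (0.28), Ifit2 (0.58) and Bst2 (-0.35). Genes for antigen presentation by class I, many of them inducible by interferon, had a median of 0.31, and 3 of 12 rose, H2-T3 (1.28), Psmb9 (0.69) and Tapbp (0.66). Psmb9 did not pass without EtOH replicate 1 (adjusted p = 0.0525) or 2 (0.160) or without 4-OHT replicate 1 (0.0741) or 2 (0.152), and Tapbp was under the fold cutoff without EtOH replicate 3 (0.53).

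Interferon-stimulated response elements were searched on both strands as GAAA followed, after any 2 bases, by GAAA again, because IRF factors bind such repeats. They were in 10 of the 16 promoters found for the 18 genes that rose, against 3.52% of the 10352 tested genes with a promoter. The promoters of Ifit1 (chr19:34640639-34640938, plus strand) and Ifit3 (chr19:34583279-34583578, plus strand), shown as examples with 2 matches each, carry them in capitals, on the reverse strand in both.
Ifit1: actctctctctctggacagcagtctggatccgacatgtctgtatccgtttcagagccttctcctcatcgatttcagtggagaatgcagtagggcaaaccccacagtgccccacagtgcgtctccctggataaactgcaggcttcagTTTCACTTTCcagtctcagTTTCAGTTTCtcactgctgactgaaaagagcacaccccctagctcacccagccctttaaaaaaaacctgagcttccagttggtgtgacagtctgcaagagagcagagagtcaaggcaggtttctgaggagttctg
Ifit3: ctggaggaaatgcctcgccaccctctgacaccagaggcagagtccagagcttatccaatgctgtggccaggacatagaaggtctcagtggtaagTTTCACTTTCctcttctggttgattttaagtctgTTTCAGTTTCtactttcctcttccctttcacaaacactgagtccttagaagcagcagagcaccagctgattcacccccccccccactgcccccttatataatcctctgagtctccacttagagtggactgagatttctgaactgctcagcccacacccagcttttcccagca
The matches of Ifit1 start 104 and 85 bases, and those of Ifit3 156 and 122 bases, before the start site. Ifit1 itself was at 3.36, 2.28 and 3.78 CPM against 12.8, 14.2 and 6.92 CPM, a log2 fold change of 1.85 (SE 0.34, adjusted p = 3.05e-04), and Ifit3 at 0.108, 0.354 and 0.343 CPM against 1.07, 1.42 and 0.528 CPM (1.86). The groups did not overlap in either gene. Oasl2, Oasl1, Irf7, Irf9, Xaf1 and Ifi44 rose without a match in this window.

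Most genes linked to regeneration and to the fetal epithelium rose. Of 20 listed genes 15 were tested, 10 rose and 0 fell, with a median of 0.83. Msln, the surface protein mesothelin, was at 3.25, 1.11 and 4.95 CPM in EtOH and 30.7, 39.9 and 47.6 CPM in 4-OHT organoids, a log2 fold change of 3.66 (SE 0.35, adjusted p = 5.45e-07). Anxa10, an annexin, rose from 1.41, 1.37 and 2.31 CPM to 14.9, 17.8 and 15.6 CPM, a log2 fold change of 3.24 (SE 0.20, adjusted p = 1.31e-12), and the alarmin Il33 from 0.379, 1.42 and 0.883 CPM to 3.63, 4.25 and 4.805 CPM (2.22). Both groups were apart for the 3 genes. Anxa3 (1.64), Anxa1 (1.02), Clu (0.96), which marks revival stem cells, and S100a6 (0.83) also rose. Ly6a, which encodes the surface marker Sca-1, was at 21.3, 11.03 and 19.4 CPM against 18.2, 23.1 and 14.1 CPM, with a log2 fold change of 0.10 (SE 0.32, adjusted p = 0.828). Of 9 markers of colonic and gastric epithelium 2 were tested, the gastric trefoil genes Tff1 (1.68) and Tff2 (1.00), and both were called higher. Together these 2 genes summed to 0.736 to 1.03 CPM in EtOH and 1.94 to 2.30 CPM in 4-OHT organoids. Muc5ac, Gkn1 and Car4 had 0 counts in all 6 libraries. Tff2 did not pass without EtOH replicate 3 (adjusted p = 0.179), 4-OHT replicate 1 (0.0715) or 4-OHT replicate 2 (0.0505), or with the 6 libraries of day 5 alone (0.0551), and Tff1 did not pass without EtOH replicate 1 (0.0600).

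Enterocyte genes moved in both directions. Of 25 brush border and transport genes 7 rose and 3 fell, with a median of 0.28, beside 8.58% of all tested genes called higher and 4.62% lower. Ace, the angiotensin-converting peptidase, was at 57.5, 64.5 and 54.2 CPM in EtOH and 219.6, 223 and 218 CPM in 4-OHT organoids, a log2 fold change of 1.91 (SE 0.13, adjusted p = 3.80e-10), and Mep1a, a meprin protease, rose from 32.8, 32.3 and 33.5 CPM to 107, 105 and 81.8 CPM (1.58). The peptide transporter Slc15a1 (0.82), the peptidases Anpep (0.79) and Dpp4 (0.68), the cystine transporter subunit Slc7a9 (0.92) and Krt20 (0.59) rose too. All 3 that fell handle sugars. Slc2a2, the basolateral glucose and fructose transporter GLUT2, fell from 63.95, 61.04 and 52.2 CPM to 9.83, 11.03 and 9.71 CPM, a log2 fold change of -2.53 (SE 0.12, adjusted p = 8.33e-15). Slc2a5, the fructose transporter, fell from 159, 359.6 and 199 CPM to 85.9, 88.1 and 82.6 CPM (-1.48), and lactase, encoded by Lct, from 5.42, 8.65 and 12.6 CPM to 3.098, 4.46 and 3.12 CPM (-1.32). Each 4-OHT library was under every EtOH library for all 3. Other sugar-handling members were not called, namely Slc5a1 (-0.49), Sis (-0.30), Treh (-0.34) and Mgam (-0.37).

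Metabolic lists had called members in both directions, and their counts stand against 8.58% of all tested genes called higher and 4.62% called lower. Among 18 lipid genes 3 rose and 2 fell. The fatty acid translocase Cd36 rose from 4.06, 4.96 and 2.89 CPM to 19.7, 20.3 and 17.4 CPM, a log2 fold change of 2.27 (SE 0.16, adjusted p = 2.26e-11). Fabp1, the liver-type fatty acid carrier, fell from 386, 575 and 281 CPM to 185, 181 and 156 CPM, a log2 fold change of -1.25 (SE 0.19, adjusted p = 6.94e-05), and Apoc3 from 123, 137 and 129.9 CPM to 47.96, 43.5 and 44.1 CPM (-1.53). Of 16 retinoid genes 4 fell and 1 rose, among them Aldh1a1, which makes retinoic acid, from 661, 860.4 and 749 CPM to 376, 395 and 423 CPM (-0.93), Adh1 (-0.94) and Cyp26b1 (-1.22), with Dhrs9 (1.41) higher. Of 20 cytochrome P450 genes 4 rose, led by Cyp2d34 (1.79) and Cyp4b1 (1.33), and Cyp2c29 fell (-1.45). Of 27 conjugation and antioxidant genes 5 fell and 2 rose, and the falls included the glutathione transferases Gstm1, from 1161, 1137 and 1059.7 CPM to 500.0, 533 and 627 CPM (-1.02), and Gstm3 (-1.30). The rises were of the sulfotransferase Sult1d1 (0.65) and the aldo-keto reductase Akr1b7 (0.95). Akr1b7 did not pass without 4-OHT replicate 1 (adjusted p = 0.0585) or 2 (0.114), or with the 6 libraries of day 5 alone (0.0518), and the number of these genes called higher was 0 without 4-OHT replicate 1, 1 without 4-OHT replicate 2 and 1 without EtOH replicate 3. Of 8 bile acid genes 2 rose and 1 fell. The ileal bile acid transporter Slc10a2 rose from 13.8, 11.8 and 16.7 CPM to 33.4, 37.3 and 31.3 CPM (1.27). The ileal bile acid carrier Fabp6 rose (1.49), except without EtOH replicate 2 (adjusted p = 0.0712), and the hormone Fgf15 fell (-0.76), except without EtOH replicate 1 (0.0706) or 4-OHT replicate 3 (0.0617).

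In several lists few or no genes passed both cutoffs. Of 27 genes of sterol and fatty acid synthesis, 22 of protein folding in the endoplasmic reticulum and 18 nuclear receptors, 0 were called in either direction. Of 25 core Mediator genes and 6 of the kinase module 0 were called, and of 20 SWI/SNF genes only Bcl7c was (-0.74). With 1 library left out, 1 gene was called higher among sterol synthesis genes (without EtOH replicate 2 or 4-OHT replicate 1), core Mediator genes (EtOH replicate 2) and SWI/SNF genes (EtOH replicate 1). Some of these lists still lay apart in summed level. Core Mediator genes summed to 1126 to 1136 CPM in EtOH and 1015 to 1066 CPM in 4-OHT organoids, and those of the kinase module to 280.3 to 324 CPM and 327 to 340.4 CPM. SWI/SNF genes summed to 2006.5 to 2055 CPM in EtOH and 1689 to 1822 CPM in 4-OHT organoids, with 15 of 20 log2 fold changes negative and a median of -0.21. The 22 genes of glycolysis and hypoxia, 0 of which were called, summed to 15972 to 16933 CPM in EtOH and 12597 to 12910.5 CPM in 4-OHT organoids, with a median of -0.24. The glycolytic enzymes Eno1 (-0.54, adjusted p = 8.52e-07) and Ldha (-0.50, adjusted p = 3.11e-06) passed the adjusted p but not the fold cutoff.

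Signalling and regulatory lists had a few called members each, and of all tested genes 8.58% were called higher and 4.62% lower, so 1 called gene in a list of about 20 is near that background. Of 20 immediate early genes 4 fell, Egr1, Klf2 (-2.16), Atf3 (-1.30) and Jun (-0.80), and Fosb rose (0.98), though not without EtOH replicate 2 (adjusted p = 0.113) or 4-OHT replicate 2 (0.132). Areg, a ligand of the EGF receptor, was the 1 of 18 EGF pathway genes called, falling from 50.4, 45.1 and 59.6 CPM to 25.8, 27.6 and 20.96 CPM (-1.06), and of 21 p53 targets 1 was called higher, Tnfrsf10b (0.91), and 1 lower, Gdf15 (-0.72), which came to -0.44 without EtOH replicate 3 and -0.55 without 4-OHT replicate 1. Of 15 BMP and TGF-beta genes 3 fell, Tgfb1 (-0.70), Bmp7 (-0.72) and Id2 (-0.71, but -0.57 without EtOH replicate 1). Of 9 chemokines Cxcl16 (0.76) and Ccl20 (1.11) rose and Ccl6 and Ccl9 (-1.27) fell, and Ccl20 did not pass without EtOH replicate 3 (adjusted p = 0.0582), 4-OHT replicate 1 (0.0567) or 4-OHT replicate 3 (0.0537), or with limma-voom (0.0531). Of 17 regional and enterocyte transcription factors Maf (0.97) and Prdm1 (0.63) rose, the latter by 0.57 without EtOH replicate 3 and 0.53 without 4-OHT replicate 2, under the cutoff. Of 18 genes of fatty acid oxidation only Acaa1b was called (-2.96), of 15 clock genes only Nfil3 (-0.61, but -0.40 without EtOH replicate 3 and -0.58 both with upper quartile factors and with limma-voom), and of 2 tested class II genes H2-DMa (-0.80).

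Mitochondrial and noncoding genes took larger shares of the reads of 4-OHT organoids at day 5. Mitochondrial genes took 2.51 to 2.80% of counts in EtOH and 4.59 to 5.57% in 4-OHT organoids, and 12 of the 13 mitochondrial coding genes rose, with a median of 1.06. Cytochrome oxidase subunit 1, mt-Co1, was at 7973, 7471 and 7213 CPM against 18119.5, 16247 and 13849.6 CPM, a log2 fold change of 1.09 (SE 0.12, adjusted p = 1.62e-07). At days 3, 7 and 10 the shares were 3.92 to 5.39%, 3.09 to 3.58% and 1.496 to 1.601% with EtOH and 5.21 to 5.56%, 2.82 to 3.70% and 1.63 to 1.96% with 4-OHT, and 0, 0 and 1 of the 13 genes were called higher. The day 5 response was above that of day 3 for 12, of day 7 for 11 and of day 10 for 6 of them. The difference in share at day 5 was 2.36 percentage points, with a 2-sided exact permutation p of 0.100, the smallest that 3 libraries against 3 allow. Of 1527 tested genes of long noncoding types 350 rose (22.9%) and 46 fell (3.01%), with a median of 0.38, compared with 825 (6.74%) and 620 (5.07%) of 12235 nuclear protein-coding genes. These types took 0.614 to 0.677% of counts in EtOH and 0.750 to 0.783% in 4-OHT organoids. At day 3, 97 rose (6.35%) and 111 fell (7.27%), at day 7, 158 rose (10.3%) and 98 fell (6.42%), and at day 10, 183 rose (12%) and 54 fell (3.54%), with medians of -0.01, 0.01 and 0.19. The shares at days 3, 7 and 10 were 0.772 to 0.865%, 0.663 to 0.741% and 0.617 to 0.632% with EtOH and 0.854 to 0.865%, 0.637 to 0.681% and 0.636 to 0.671% with 4-OHT. At day 10, too, the groups did not overlap in either share (exact permutation p of 0.100 for each). Neat1, the scaffold RNA of paraspeckles, was at 282, 169 and 236 CPM against 628, 622 and 589.8 CPM, a log2 fold change of 1.42 (SE 0.26, adjusted p = 4.20e-04). Malat1, a nuclear speckle RNA, was at 47.7, 35.3 and 32.6 CPM against 121, 113 and 114 CPM, a log2 fold change of 1.59 (SE 0.22, adjusted p = 2.93e-05). Neat1, Malat1 and mt-Co1 were picked here after their values were seen. The RNA was labelled as polyA RNA, the strand setting of the counting is not given, so antisense genes cannot be told apart from their partners, and the part of RNA quality or selection in these rises was not tested. With nuclear protein-coding genes alone, which leaves out pseudogenes too, 882 genes were called higher and 552 lower.

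**Figure D3:**
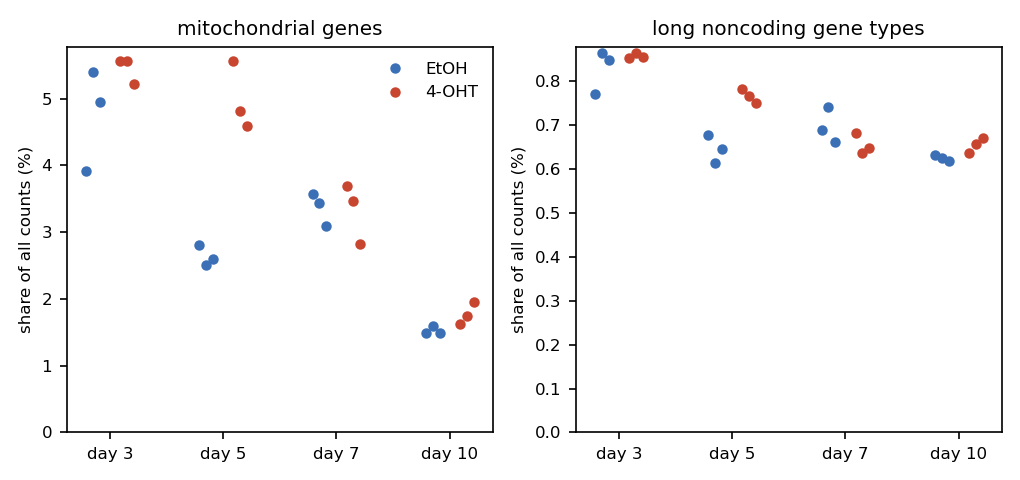
The left panel gives the share of all counts in mitochondrial genes and the right panel the share in long noncoding gene types, in percent, for each of the 24 time-course libraries, EtOH in blue and 4-OHT in red. The gap between the groups is widest at day 5, where 4-OHT libraries lie from 4.59% (mitochondrial) and 0.750% (noncoding) upwards and EtOH libraries at up to 2.80% and 0.677%.

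Days 7 and 10 held more of the genes called at day 5, in the same direction, than day 3 did. Each day's comparison has its own EtOH libraries. Of the 2040 genes called at day 5, 881 were called in the same direction at day 7 (43.2% of the day 5 and 31.2% of the day 7 genes) and 52 in the opposite one. With day 10, 816 were shared in direction (40.0% and 33.5%) and 20 opposite. With day 3, 322 were shared (15.8% and 16.9%) and 175 opposite. Tests of the difference between responses called 3120 genes (20.2%) against day 3, 1361 (8.81%) against day 7 and 1310 (8.48%) against day 10. The day 5 response was the higher one for 11.2%, 5.01% and 3.94% of tested genes and the lower one for 9.01%, 3.8% and 4.54%. At days 3, 7 and 10 themselves 6.42%, 9% and 8.86% of tested genes were called higher and 5.95%, 9.25% and 6.92% lower. In all, 106 genes were called in the same direction on all 4 days.

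**Figure D4:**
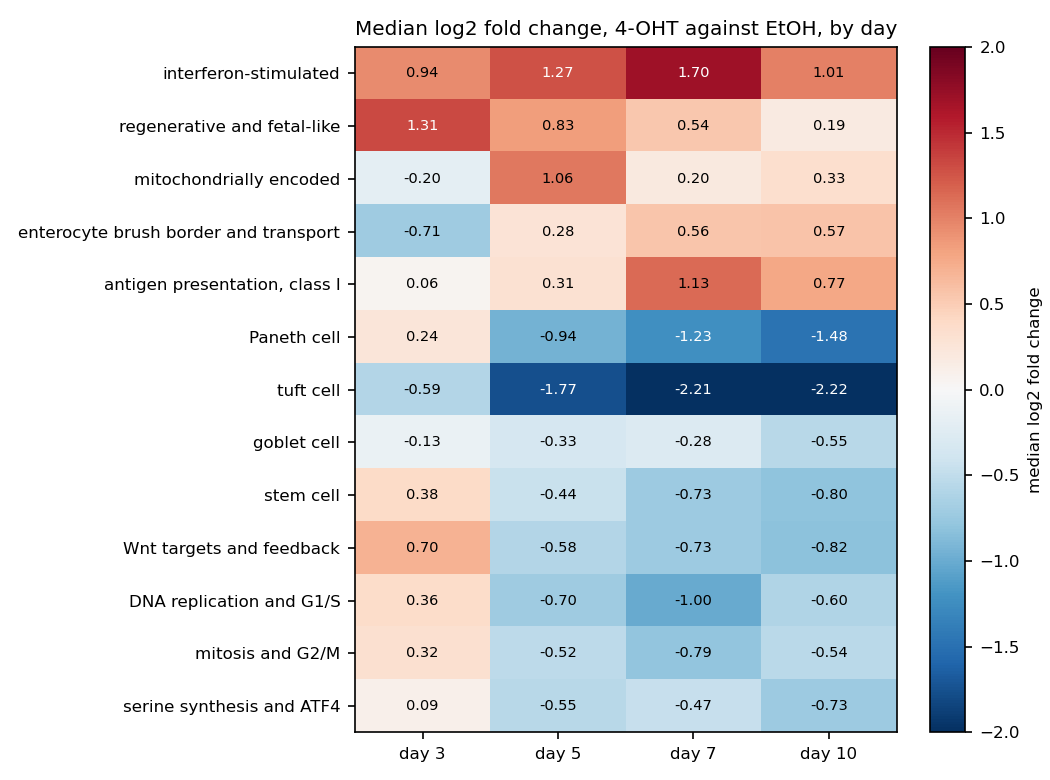
Each cell gives the median log2 fold change, 4-OHT against EtOH, of the tested members of a list on one day, red above 0 and blue below. The Paneth cell median goes from 0.24 at day 3 to -0.94 at day 5 and -1.48 at day 10, and the mitochondrial median stands out at day 5 with 1.06.

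Paneth cell, stem cell, Wnt target and replication genes had positive medians at day 3 and negative ones at day 5. For Paneth cell genes, 19 of 22 had a lower day 5 than day 3 response by the test of the difference, and at day 3 only 1 was called lower and 5 higher. For Wnt targets this held for 16 of 17, with 10 called higher at day 3, for stem cell genes for 12 of 18, for replication genes for 22 of 25 and for mitosis genes for 21 of 22. Against day 7, the day 5 response was higher for 2 and lower for 1 of 22 Paneth cell genes, higher for 4 of 18 stem cell and 3 of 17 Wnt target genes, and different for 0 replication and 0 mitosis genes. Against day 10, it was higher for 7 of 22 Paneth cell, 1 of 18 stem cell and 1 of 17 Wnt target genes. It was also higher for 2 of 22 mitosis genes and lower for 1 of 25 replication genes. Over all tested genes it was higher for 11.2%, 5.01% and 3.94% against days 3, 7 and 10, and lower for 9.01%, 3.8% and 4.54%. A count of 1 in these lists was near that background. Atoh1 went from 0.10 at day 3 to -0.78 at day 5, -0.92 at day 7 and -1.16 at day 10. Wnt3 (0.68 at day 3), Ascl2 (0.98), Tcf7 (1.37) and Areg (2.11) were called higher at day 3 and lower at day 5, with differences of -1.76, -2.22, -2.29 and -3.17. Lyz1 stood at 0.28, -1.01, -1.63 and -1.83 over the 4 days, and Olfm4 at 0.40, -0.94, -1.67 and -0.97. Tuft cell genes were already called lower at day 3 for 5 of 12, with a median of -0.59 at day 3 and -1.77 at day 5. The day 5 response was below that of day 3 for 2 of 12 and above it for 0. The low counts of many of these genes limit such calls.

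Brush border genes had a negative median at day 3 and a positive one at day 5. At day 3, 13 of 25 were lower and 0 higher, with a median of -0.71, and 15 of 25 had a higher day 5 response. Mep1a was at 0.20, 1.58, 2.36 and 1.88 over days 3, 5, 7 and 10, and Ace at -0.55, 1.91, 2.10 and 1.72. Slc2a2 was lower on all 4 days (-2.54, -2.53, -1.03 and -1.43). Interferon-stimulated genes were called higher for 12 of 23 at day 3, 18 at day 5, 17 at day 7 and 13 at day 10. Their medians were 0.94, 1.27, 1.70 and 1.01, the largest at day 7. Against day 7 the day 5 response was lower for 2 of 23 and higher for 0. Class I antigen presentation genes were called higher for 0 of 12 at day 3, 3 at day 5, 10 at day 7 and 10 at day 10, and 6 of 12 had a lower day 5 than day 7 response. Regenerative genes were higher for 10 of 15 at day 3, 10 at day 5 and 4 at each of days 7 and 10. At days 3, 5, 7 and 10, 1, 0, 2 and 3 of them were lower. Their median was 1.31 at day 3 and 0.83 at day 5, and by the test of the difference 4 had a higher and 7 a lower day 5 than day 3 response. Msln was called higher at day 5 alone (-0.64, 3.66, -1.54 and -0.77), and Clu was lower at days 3, 7 and 10 (-1.21, -2.14 and -0.80) but higher at day 5 (0.96).

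A set of 731 genes was called at day 5 and on no other day, 596 of them higher and 135 lower. For 106 of these the day 5 response also differed from that of each other day, 103 being higher and 3 lower (Arsg, Cbr3 and Itgb3bp). The higher ones included 6 mitochondrial coding genes. The nuclear genes named next were picked after their values were seen and stand for no list. Rsrp1, an arginine- and serine-rich nuclear protein, was at 133, 93.4 and 108 CPM in EtOH and 324, 296 and 271 CPM in 4-OHT organoids, a log2 fold change of 1.42 (SE 0.18, adjusted p = 1.18e-05), while its values at days 3, 7 and 10 were -0.58, -0.11 and 0.47. The splicing factor Srsf5 rose from 172.7, 131 and 156 CPM to 262, 242 and 237 CPM (0.69), and Ogt, the O-GlcNAc transferase, from 168, 144 and 142 CPM to 367, 341 and 324 CPM (1.18). Each had 4-OHT libraries above all EtOH libraries. Leng8 (1.25), Ccnl2 (0.97), Rbm5 (0.70), Pnisr (0.82), Arglu1 (0.66) and the noncoding RNA Firre (0.83) belonged to the same 103. They rose beside the mitochondrial and noncoding shares given above, and what part those shares have in this was not tested.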

How the data were processed

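PolyA RNA of the organoids was read in pairs of 100 bp. The authors deposited raw counts of reads per gene, one column per library, for 54752 genes, without normalization. The submitters' processing notes name STAR 2.5.2, featureCounts, Subread 1.6.3 and the build mm10, with no roles, and the strand setting and annotation are not given in the sources used here. The tables of the other experiments were not used here. Of the gene IDs, 53861 were in GENCODE vM21, which gave positions in GRCm38.

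All 24 time-course libraries, in 8 groups of 3, were fitted together in edgeR 4.0.16 (R 4.3.3) with filterByExpr, TMM factors and the robust quasi-likelihood test, and contrasts gave each day's response and its differences between days. Calls needed an adjusted p under 0.05 and a fold over 1.5. The SE was the absolute log2 fold change over the square root of its F statistic. CPM used library sizes, 18908677 to 20884794 counts at day 5, scaled by TMM, and counting error is smallest for well-read genes. The scripts were tested on simulated data.

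The comparison and the 43 gene lists were chosen with earlier results of these data known. Named genes were the 12 largest rises and 12 largest falls with at least 50 mean counts in the higher group, up to 4 called members of each list (the most abundant member where fewer than 2 were called), the genes the study names, and up to 5 genes in each direction for each difference between days. Other members are named to account for their lists. Deviations of libraries with equal replicate numbers in the titles correlated at 0.117, -0.059 and 0.050, so no block was used. The column numbers differ from the titles, as the 4-OHT columns of day 5 run from 2 to 4 and the EtOH columns from 1 to 3. Libraries with equal column numbers, 2 and 3, correlated at -0.046 and 0.018. The alternatives were other filters (at least 1 count in all, or 10 counts in every library), upper quartile and RLE scaling, limma-voom (limma 3.58.1), DESeq2 1.42.0, the replicate block, each day 5 library left out, and the 6 libraries alone. Leaving out mitochondrial genes with their pseudogene copies, and keeping nuclear protein-coding genes only, were added after seeing the data. Shares of counts were compared with exact permutation tests in scipy 1.17.1.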

Additional observations from a re-analysis of the deposited data

Results flagged for a closer look

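The responses of the same line differed between days by the test of the difference itself, for 3120 genes between days 5 and 3, 1361 between days 5 and 7 and 1310 between days 5 and 10. The values below are the day 5 minus the other day's log2 fold change, for the 5 largest in each direction among genes with at least 50 mean counts in one of the groups compared.

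Against day 3, the antimicrobial lectin Reg3b (4.87) and Reg1 (4.31) stood out above, having fallen at day 3 (-3.93 and -3.28) and risen at day 5. Psca (4.31), Msln (4.29) and the cytochrome P450 Cyp2c38 (4.15) were the others above. Below were Aldh1l2 (-4.63), Alb (-4.62), the cornified envelope gene Sprr1a (-3.91), Stc1 (-3.71), which encodes stanniocalcin, and Areg (-3.17), all called higher at day 3. At day 5 Stc1 was not called (-0.45). The rise of Reg3b at day 5 (0.94) did not pass without EtOH replicate 2 (adjusted p = 0.119) or 3 (0.0547), without 4-OHT replicate 1 (0.114) or 2 (0.0810), or with no filter on low counts (0.0624). That of Reg1 (1.03) did not pass without EtOH replicate 2 (0.0638) or 3 (0.0595), without 4-OHT replicate 1 (0.157), or with limma-voom (0.0564).

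Against day 7, Msln (5.19), Psca (4.89), Prl2c3 (4.32), Clu (3.10) and Gm28230 (3.08) had the higher day 5 response. Prl2c3 was not called at day 5 itself (0.92), except with the 6 libraries of day 5 alone (adjusted p = 0.0356), and fell at day 7 (-3.40). Alb (-4.12), the adhesion receptor Adgrd1 (-3.81), Wipf3 (-2.49), the interferon-induced Xaf1 (-2.43) and the carboxylesterase Ces2b (-2.31) had the lower one. The difference of Xaf1 did not pass without EtOH replicate 1 (adjusted p = 0.116).

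Against day 10, Msln (4.42), Psca (3.56), Acacb (3.08), Syt8 (2.97) and Alox12b (2.95) had the higher day 5 response, the last through a fall at day 10 (-3.46). Acsm5 (-3.73), Alb (-3.02), 9130409I23Rik (-2.96), Fcrlb (-2.52) and the metallothionein Mt4 (-2.35) had the lower one. Fcrlb and Mt4 were at 19 and 57 counts over the 3 4-OHT libraries of day 5. The difference of Fcrlb did not pass without EtOH replicate 2 (adjusted p = 0.157) or 4-OHT replicate 3 (0.0532), and that of Mt4 came to -1.27 (0.252) without EtOH replicate 3 and did not pass without 4-OHT replicate 1 (0.0507) or 3 (0.0713), with limma-voom (0.0809) or with no filter on low counts (0.0728). The difference of Acacb did not pass without EtOH replicate 1 (0.0593) or 2 (0.0654), and with limma-voom neither it (0.0864) nor that of Alox12b (0.0502) passed.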

How the results depend on the processing

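The replicate block (the titles' numbers as a term) called 2044 genes at day 5, 1332 higher and 712 lower, and changed the call of 0 of 159 named genes. Requiring 10 counts in every library called 1303 genes, 792 of them higher, out of 12344 tested, and keeping nuclear protein-coding genes alone called 882 higher; both test fewer genes. Leaving out 1 library at a time gave 1701 to 2138 genes, 1076 to 1263 higher and 613 to 909 lower, with the lowest count without EtOH replicate 3 and without 4-OHT replicate 1. For the differences it gave 2723 to 3283 genes against day 3 (1469 to 1717 above, 1254 to 1598 below), 1057 to 1562 against day 7 (614 to 855 above, 443 to 707 below) and 1178 to 1426 against day 10 (461 to 602 above, 717 to 837 below). The share of higher genes among those called was 65.0% at first and between 56.8% (without EtOH replicate 2) and 69.9% (upper quartile scaling) under the alternatives, and upper quartile scaling moved the median of all genes to 0.0325. The other counts over all genes stayed within 1.5 times their value. Counts of list members are small and moved by more. With 1 library left out, the genes called lower went from 1 to 2 for P450 (without EtOH replicate 1 or 2, 4-OHT replicate 2 or 3), EGF pathway (EtOH 1 or 2, 4-OHT 1 or 2) and fatty acid oxidation genes (EtOH 3), from 0 to 1 (EtOH 2) or 2 (EtOH 3) for glycolysis genes, and p53 targets called higher from 1 to 2 (EtOH 2 or 3). In such fits up to 1 goblet cell gene and 1 clock gene were called higher, and up to 1 regional or enterocyte transcription factor lower, from 0 each. No named gene changed direction where it was called. Named genes lost their day 5 call in 15 cases without EtOH replicate 3, in 11 without 4-OHT replicate 1, in at most 8 without any other library, in 3 with limma-voom and in 1 with DESeq2. The filter of 10 counts left 10 interferon-stimulated genes called higher and 1 tuft cell gene called lower, as low genes were not tested. Depth limits the tuft and oligoadenylate synthetase genes, whose groups held as few as 5 counts over 3 libraries.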
